A study of Homo sapiens with 6 samples.

Results

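The genes described here encode splicing factors, and they were chosen by name: every symbol in the deposited RNA-seq table that starts with SRSF, HNRNP, SF3A, SF3B, U2AF, SNRP or PRPF. These were 72 of 19223 symbols and 177 of 45006 transcripts. LoVo cells, a line established from a colorectal adenocarcinoma of human origin, were grown without DCC-2036 (Control, 3 libraries) or with it at 2.5 μM (DCC-2036, 3 libraries). DCC-2036, also called rebastinib, inhibits tyrosine kinases. The labels give 48 h for both groups and call the Control cells vehicle-treated, whereas the paper's figure legend gives a shorter time. The comparison asks which splicing factor RNAs differ between treated and untreated cells, and whether transcripts of 1 gene differ to unequal degrees.

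Introns are removed by the spliceosome, which is built on each pre-mRNA from small nuclear ribonucleoproteins (snRNPs). The U1 snRNP binds the 5′ splice site, U2AF and the SF3 proteins of the U2 snRNP mark the 3′ splice site and the branch point, and the U4/U6.U5 tri-snRNP completes the machine. SR proteins mostly favour the use of exons they bind, hnRNPs often oppose it, and many genes of both families splice their own transcripts into forms that yield no full protein.

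Each library holds 1 non-whole value per transcript, called its value below, so the reads behind it are unknown, and column totals ran from 38997229 to 48023306. Each gene is represented by its transcript of highest mean across all 6 libraries, and symbols that reached 10 in 3 or more libraries entered a limma test on log2(value + 1). A gene is called higher or lower when its Benjamini-Hochberg adjusted p over all 12725 tested symbols is under 0.01, and it is said to rise or fall only then. Among colorectal epithelial markers 6 of 11 reached a value of 100, with EPCAM between 4520 and 5960, but CDX1, VIL1, CEACAM5 and LGALS4 stayed under 10 in every library. The summed epithelial markers ran from 104000 to 115000 in Control and from 148000 to 188000 in DCC-2036, while the leukocyte sum was at most 30.9, the endothelial sum at most 41.3 and the fibroblast sum at most 553, with only COL1A1 of the fibroblast list above 100. The part of the epithelial difference in the results was not tested. In bulk RNA a smaller number of cells that express a gene and less of its RNA per cell cannot be told apart. The labels do not say whether libraries of a group come from separate experiments, so the p-values measure the spread between these samples.

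Of the 72 genes, 68 were tested. HNRNPCL1 and HNRNPCL2 were listed at 0 in all libraries, and SNRPN and SRSF12 did not exceed 1.9 and 2.23. After DCC-2036, 9 of the 68 rose and 15 fell, and 44 were not called. Among all tested symbols 19.2% rose and 22.7% fell, so the share of splicing factors called was not above that background in this fit. With libraries scaled to equal totals 8 of the 68 rose and 21 fell, beside 1669 and 3440 of 12737 symbols. Under that scaling the share that fell was somewhat above that of all symbols. Without any 1 of the Control libraries, or without DCC-2036 replicate 2, 3 rose and 6 fell. Calls among all symbols dropped too in these fits, to 928 to 1054 higher and 1514 to 1708 lower of 12540 to 12572 tested. In all 14 alternative fits, 8 of the 24 called genes kept their call. Each of the other called genes lost it without at least 1 of the Control libraries, and all but HNRNPL also without DCC-2036 replicate 2. Control and DCC-2036 values did not overlap for 51 of the 68 genes (75.0%), beside 71.1% of all symbols. The median log2 fold change of the members was -0.07, beside -0.09 over all symbols tested. Single members thus moved strongly, and most did not pass the test.

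**Figure D1:**
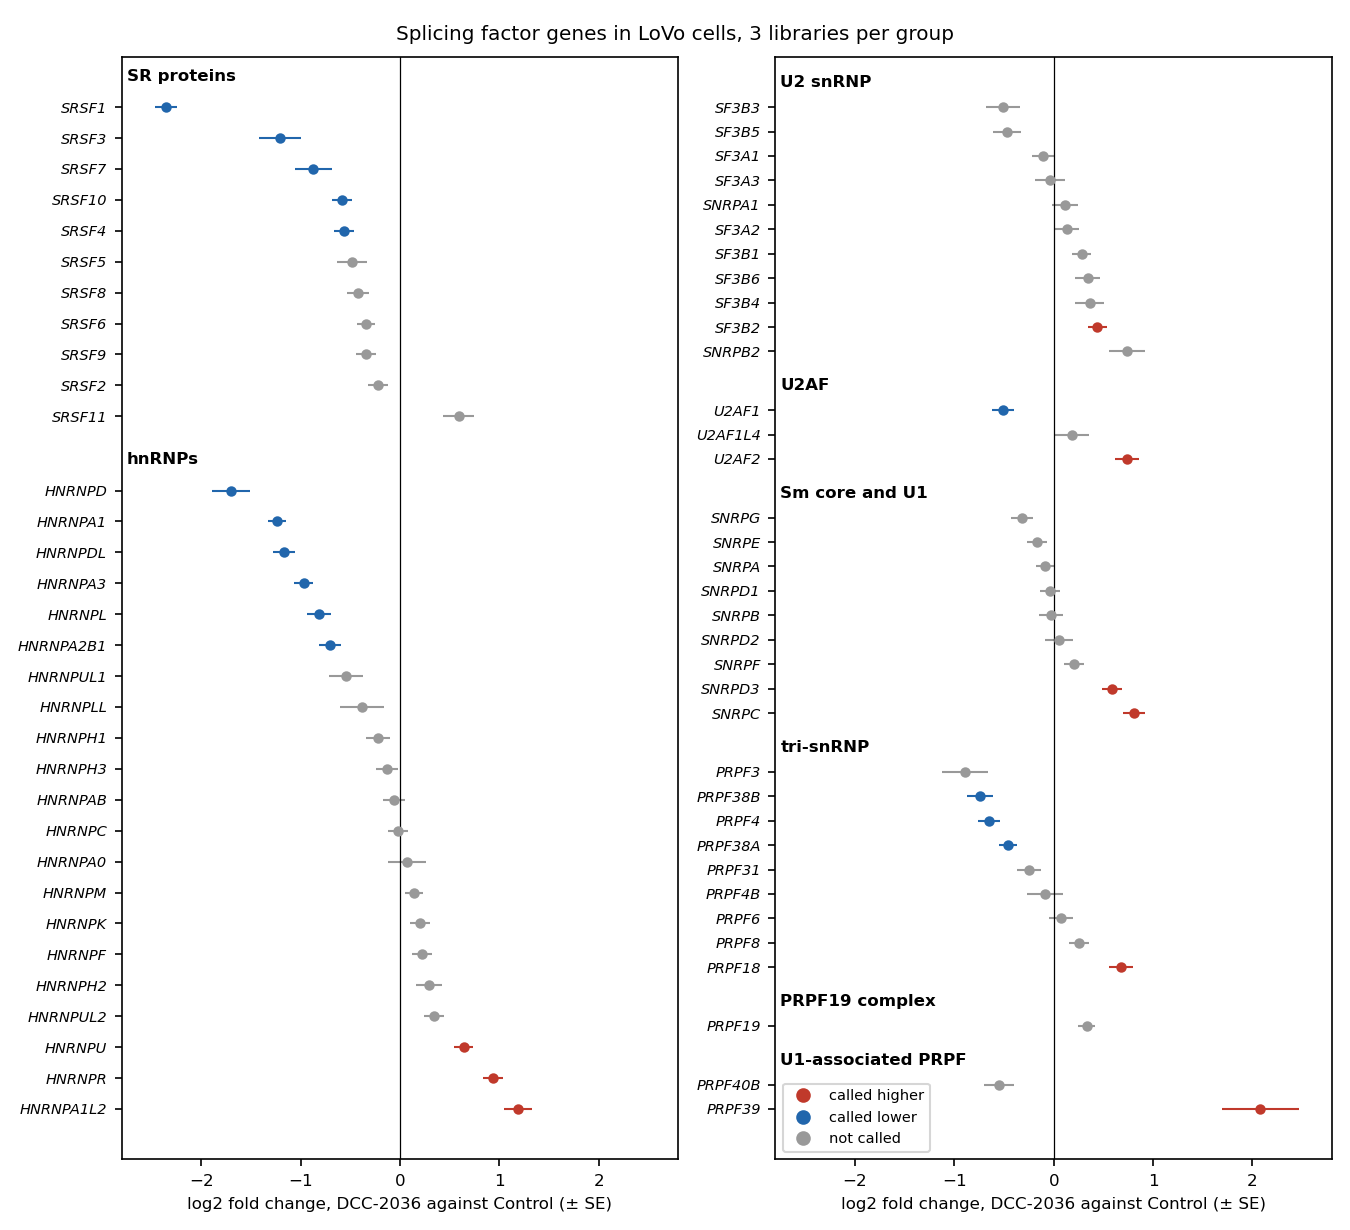
Log2 fold change (horizontal axis, DCC-2036 against Control, with the standard error as bar) of all but 1 of the 68 tested splicing factor genes, grouped by role, from limma with 3 libraries per group; red genes were called higher, blue lower and grey not called. SR proteins sit mostly left of 0, hnRNPs spread from -1.70 for HNRNPD to 1.19 for HNRNPA1L2, and most spliceosome core genes lie near 0.

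SR proteins were the role group with the lowest median. Of 11 tested SR protein genes 5 fell and 0 rose, beside 22.7% and 19.2% of all symbols. The number that fell was 9 with the libraries scaled to equal totals and 3 with the median of ratios, beside 3440 of 12737 and 2634 of 12690 symbols. The median log2 fold change was -0.48, and 10 of 11 point estimates were below 0 as deposited, beside 6851 of 12725 symbols. Under each of the other scalings 10 of 11 were below 0 too. The median over all symbols was then -0.289 at equal totals and -0.009 with the median of ratios. Without any 1 of the Control libraries or without DCC-2036 replicate 2 the count that fell was 1, SRSF1, beside 1514 to 1708 of all symbols. In none of the 11 did Control and DCC-2036 values overlap, which also held for 71.1% of all symbols. The family was chosen with these results in view, and its direction was given no test of its own.

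SRSF1, the founding SR protein and a regulator of constitutive and alternative splicing, had the largest decrease of all members. Its values were 9622, 10551 and 9944 in Control and 2158, 1815 and 1930 after DCC-2036. All treated libraries were near 19.6% of the Control mean, with little spread in either group. The log2 fold change was -2.35 (SE 0.11, n = 3 per group, limma adjusted p = 0.000178). The 2 listed SRSF1 transcripts moved almost alike, with NM_006924 at 99.1% to 99.3% of NM_001078166 in Control and at 96.0% to 98.3% after DCC-2036. The gene lies on chr17:58003360-58007346 (minus strand, GRCh38, GENCODE 29).

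SRSF3, the smallest SR protein, which also takes part in mRNA export, had values of 6810, 7067 and 6832 in Control and of 3869, 3138 and 2176 after DCC-2036. All treated libraries were lower, and they differed among themselves far more than the Control libraries did. The log2 fold change was -1.21 (SE 0.21, limma adjusted p = 0.00341). It missed the threshold without any 1 of the Control libraries or without DCC-2036 replicate 2, where the adjusted p lay between 0.0127 and 0.0152. SRSF7, a close relative of SRSF3 with a zinc knuckle, had 2064, 2035 and 1886 in Control and 850.5, 1066 and 1422 after DCC-2036. Here too the groups did not overlap and the treated libraries were spread out, for a log2 fold change of -0.87 (SE 0.19, limma adjusted p = 0.00846). That call was lost in 8 of 14 alternatives, including the removal of any Control library or of DCC-2036 replicate 2 (adjusted p 0.026 to 0.0323).

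SRSF10, which acts as a splicing repressor when dephosphorylated, and SRSF4 fell by 0.58 and 0.56 on the log2 scale. These calls were kept in 8 and 7 of 14 alternatives. The SRSF10 value is that of its top transcript, and the log2 fold changes of its 8 transcripts ran from -0.59 to -0.28. SRSF6, the member of this prefix with the highest mean, had values of 6986, 7178 and 7055 in Control and of 5481, 5486 and 5840 after DCC-2036. The groups are well apart, but at a log2 fold change of -0.34 (SE 0.09) the limma adjusted p was 0.0181 and the gene was not called. It was called with libraries scaled to equal totals (adjusted p = 0.00301) and with a limma trend (0.0047). SRSF5 (-0.48), SRSF8 (-0.42), SRSF9 (-0.34) and SRSF2 (-0.22) were not called. SRSF11 was the exception in direction: its values of 2997, 2984 and 2833 in Control stood against 3680, 4265 and 5456 after DCC-2036, a log2 fold change of 0.59 (SE 0.16) that was not called (limma adjusted p = 0.018).

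**Figure D2:**
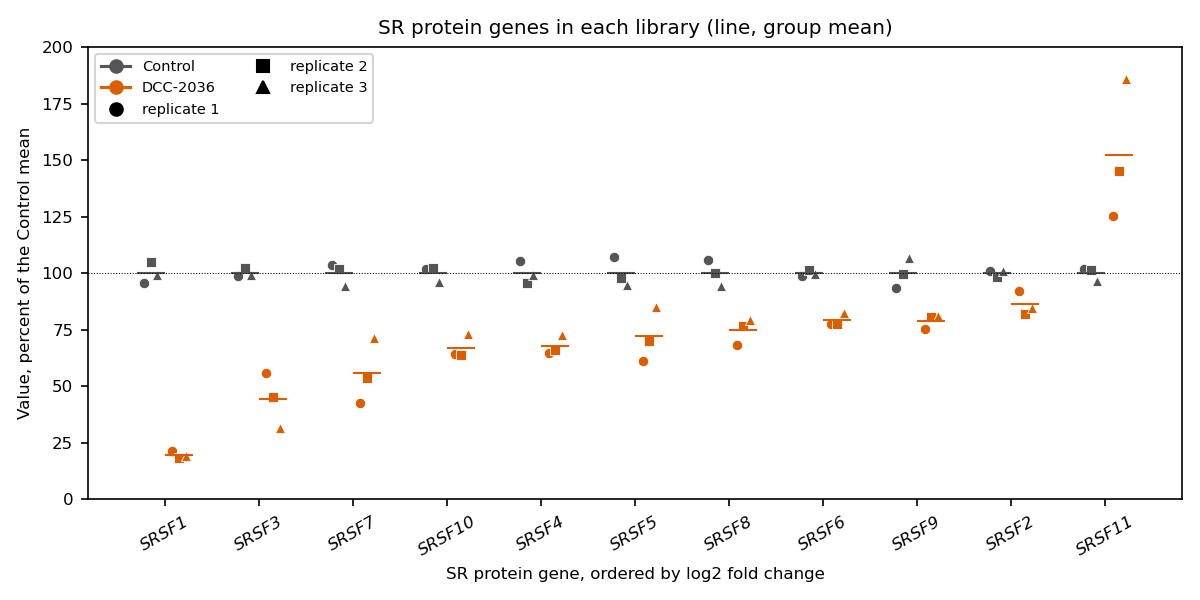
Value in each library as a percentage of the gene's Control mean (vertical axis) for the 11 tested SR protein genes (horizontal axis, ordered by log2 fold change); grey symbols are Control, orange symbols DCC-2036, shapes mark the replicate number and lines the group means. The 3 treated libraries of SRSF1 lie together near 19.6%, those of SRSF3, SRSF7 and SRSF5 are spread out, and SRSF11 alone lies above its Control values.

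Of 21 tested hnRNP genes 3 rose, 6 fell and 12 were not called, near the 19.2% and 22.7% of all symbols. Their median log2 fold change of -0.06 was 0.02 with the libraries scaled by the median of ratios and -0.26 at equal totals. The genes that fell include several of the A/B and D types, RNA-binding proteins with paired RNA recognition motifs and a glycine-rich tail.

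HNRNPD, also known as AUF1, binds AU-rich elements and takes part in mRNA decay. Its values of 7299, 7273 and 7572 in Control stood against 3013, 2054 and 1876 after DCC-2036. The treated libraries averaged 31.4% of Control, and the highest of them was well below every Control library. The log2 fold change was -1.70 (SE 0.19, limma adjusted p = 0.000744). HNRNPDL, its paralogue, lies in the neighbourhood on the same strand (HNRNPD chr4:82352498-82374503, HNRNPDL chr4:82422564-82430408, both minus, GRCh38). It had 2943, 3085 and 3250 in Control and 1513, 1244 and 1387 after DCC-2036, again without overlap (log2 fold change -1.17, SE 0.11, limma adjusted p = 0.000532).

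HNRNPA1, which binds exonic and intronic splicing silencers, had values of 26718, 28424 and 28778 in Control and of 11791, 11547 and 12060 after DCC-2036. Replicates were tight in both groups, at 42.2% of Control after treatment, and the log2 fold change was -1.24 (SE 0.09, limma adjusted p = 0.000277). HNRNPA3 stood at 9653, 9528 and 9671 in Control and at 4821, 4667 and 5244 after DCC-2036 (log2 fold change -0.97, SE 0.10). HNRNPA2B1, an RNA transport factor of the same type, had 18880, 18856 and 18397 in Control and 10655, 11387 and 12683 in treated cells (-0.70, SE 0.11). HNRNPA1, HNRNPA3 and HNRNPA2B1 had no overlap between groups, whereas HNRNPA0 (0.07) and HNRNPAB (-0.06), of the same A/B type, had overlapping groups and were not called. Exons of HNRNPA2B1 overlap CBX3 on the other strand, and the library kit does not mark strand.

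HNRNPL, a reader of CA repeats, had 9693, 9687 and 10522 in Control and 6231, 5749 and 5065 after DCC-2036, a log2 fold change of -0.81 (SE 0.12, limma adjusted p = 0.00168). Its relative HNRNPLL (-0.38) had overlapping groups and was not called. The HNRNPL adjusted p was 0.0103 without Control replicate 3 and 0.0108 with a replicate block, and both ended the call.

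The hnRNP genes that rose were HNRNPA1L2, HNRNPR and HNRNPU. HNRNPR, a relative of the editing cofactor SYNCRIP, had values of 4931, 4764 and 4767 in Control and of 8758, 9282 and 9822 after DCC-2036. It was at 193% of Control with narrow spread in both groups (log2 fold change 0.94, SE 0.10, limma adjusted p = 0.000611), and its 7 transcripts all increased. HNRNPU, a nuclear matrix and chromatin-associated protein and the HNRNP member with the highest mean, had 18898, 17440 and 17687 in Control and 26180, 27968 and 30202 after DCC-2036. Its groups were far apart, at a log2 fold change of 0.64 (SE 0.10, limma adjusted p = 0.00261), and its exons overlap those of COX20 on the other strand.

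HNRNPA1L2 is a copy of HNRNPA1 without introns in its coding part, and its direction was opposite to that of HNRNPA1. Its values were 191.8, 177.2 and 192.4 in Control and 379.6, 407.0 and 510.6 after DCC-2036, without overlap (log2 fold change 1.19, SE 0.14, limma adjusted p = 0.000861). The coding sequences of the pair are identical at 945 of 960 positions (98.4%). How reads that fit both were assigned is not stated, so the HNRNPA1L2 values are uncertain.

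Among 11 tested U2 snRNP genes 1 rose and 0 fell, beside 19.2% and 22.7% of all symbols, with a median log2 fold change of 0.13. At equal totals 0 rose and 1 fell, beside 1669 and 3440 of 12737 symbols, with a median of -0.06. SF3B2, a subunit of the SF3b complex that contacts the pre-mRNA near the branch point, had 10180, 10535 and 11428 in Control and 14138, 14989 and 14530 after DCC-2036 (log2 fold change 0.44, SE 0.10, limma adjusted p = 0.00841). This call is close to the threshold and was kept in 6 of 14 alternatives. SF3B1, the large SF3b subunit that recognises the branch point, had 9360, 9912 and 9191 in Control and 11172, 11278 and 12132 after treatment (log2 fold change 0.28, limma adjusted p = 0.041, not called). SF3A1, the SF3A member with the highest mean, had overlapping groups, with 4557, 4473 and 4880 in Control and 4632, 4444 and 3854 after DCC-2036 (-0.11, SE 0.11). SNRPB2, the U2 B″ protein, reached 0.74 without being called (limma adjusted p = 0.0124).

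The partners of the U2AF dimer, which binds the 3′ splice site, had opposite signs. U2AF2, the large subunit that reads the polypyrimidine tract, had values of 7777, 7760 and 8291 in Control and of 11803, 13446 and 14794 after DCC-2036 (log2 fold change 0.74, SE 0.12, limma adjusted p = 0.00245). U2AF1, the small subunit that reads the AG at the intron end, had 3095, 3328 and 3495 in Control and 2463, 2344 and 2157 after treatment (-0.51, SE 0.11, limma adjusted p = 0.00665). Neither gene had overlapping groups, and in each of them the loss of any 1 Control library, or of DCC-2036 replicate 2, ended the call. U2AF1L4 had low values, at most 45.3 in any library, and was not called.

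Of 9 tested Sm core and U1 genes 2 rose and 0 fell, beside 19.2% and 22.7% of all symbols, with a median log2 fold change of -0.03 that was -0.22 at equal totals and 0.06 under the median of ratios. SNRPC, the U1 protein that stabilises pairing with the 5′ splice site, had 1895, 1965 and 1982 in Control and 3088, 3400 and 3757 after DCC-2036. All treated libraries were above all Control libraries, at 175% of Control (log2 fold change 0.81, SE 0.11, limma adjusted p = 0.00147). SNRPD3, 1 of the Sm ring proteins that U1, U2, U4 and U5 share, had 3070, 3047 and 3146 in Control and 4335, 4705 and 4949 after treatment (0.59, SE 0.10). Its annotated exons overlap GGT1 on the same strand and GUCD1 on the other. The remaining Sm genes lay between -0.32 (SNRPG) and 0.20 (SNRPF). SNRPB, the SNRP member with the highest mean, had 6185, 7251 and 7566 in Control and 6436, 6831 and 7323 after DCC-2036, so the groups overlapped and the log2 fold change of -0.03 (SE 0.12) changed sign under the median of ratios and without Control replicate 2, Control replicate 3 or DCC-2036 replicate 1.

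Among 9 tri-snRNP and related PRPF genes 1 rose, 3 fell and 5 were not called, beside 19.2% higher and 22.7% lower over all symbols. PRPF4, a U4/U6 protein, fell by 0.65 on the log2 scale, and PRPF38A and PRPF38B, which join at spliceosome activation, by 0.46 and 0.74. PRPF3, the binding partner of PRPF4, had 1098, 1115 and 1067 in Control but 762, 655.7 and 405.8 after DCC-2036, and with such a spread its log2 fold change of -0.89 (SE 0.23) was not called (limma adjusted p = 0.0158). PRPF18, a factor of the second catalytic step, rose from 324.3, 372.5 and 345.1 to 513.4, 531.5 and 636.2 (log2 fold change 0.68, SE 0.12, limma adjusted p = 0.00403). PRPF8, the U5 protein at the catalytic centre and the PRPF member with the highest mean, had 17084, 16227 and 18019 in Control and 20665, 21229 and 19136 in treated cells (0.25, SE 0.10, limma adjusted p = 0.0685, not called). PRPF19, the ubiquitin ligase of the complex named after it, was at 0.33 and not called (limma adjusted p = 0.0189).

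The largest increase of any member was in PRPF39, a U1-associated factor of alternative splicing. Its values were 437.3, 440.0 and 370.7 in Control and 1014, 1705 and 3165 after DCC-2036. The lowest treated library was above every Control library, and the highest of the treated libraries stood far above the other 2. The log2 fold change was 2.08 (SE 0.39, limma adjusted p = 0.00447), between 1.66 and 2.48 over the 14 alternatives, 8 of which kept the call. The call was lost without any 1 of the Control libraries and without DCC-2036 replicate 2. Its exons overlap FKBP3 on the other strand. PRPF40B, of the same role group, was at -0.55 and not called (limma adjusted p = 0.0199).

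The spread of treated libraries seen in PRPF39, SRSF3 and PRPF3 was general. The SD of the log2 values was larger in DCC-2036 than in Control for 59 of 68 members (86.8%), and for 77.3% of all symbols tested. The median SD of the members was 0.068 in Control and 0.127 in DCC-2036.

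**Figure D3:**
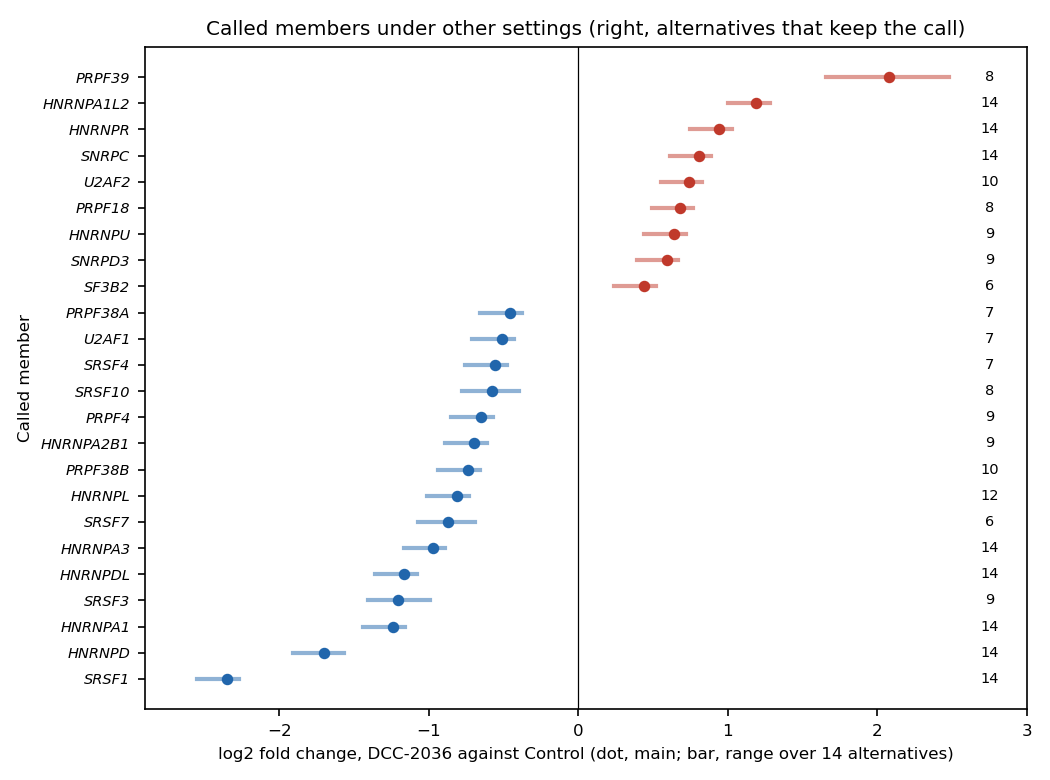
Main log2 fold change (dot) and its range over 14 alternative settings (bar) for the 24 called splicing factor genes, red higher and blue lower after DCC-2036; the number at the right is how many alternatives kept the call at an adjusted p under 0.01. No bar crosses 0, and SRSF1, HNRNPD, HNRNPA1, HNRNPDL, HNRNPA3, HNRNPA1L2, HNRNPR and SNRPC were called in all 14.

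Transcripts of 1 gene were then set against each other. For HNRNPD the values added up over exons, since the difference between a form with and a form without exon 2 was the same for both pairs of transcripts that differ by it, for example 1084 in Control replicate 1 and 422.1 in DCC-2036 replicate 1. For HNRNPC the matching differences were close but not all equal, for example 1692 and 1683 in Control replicate 3. Transcripts that share exons thus share signal and their fold changes are not independent, and the difference between nested transcripts was taken as the signal of the exon or segment that tells them apart. Of 39 genes with at least 2 transcripts past the filter, 34 had fold changes of 1 sign for all of their transcripts, and 5 had both signs (HNRNPAB, HNRNPC, HNRNPH3, SNRPD1 and SNRPE), all with values between -0.17 and 0.09.

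For each further transcript, its log2 value minus that of the top transcript in the same library was tested with limma over all 19352 such pairs in the table. Of 101 pairs from splicing factor genes 0 had an adjusted p under 0.01, beside 0.398% of all pairs. At an adjusted p under 0.05 there were 14, beside 4.14% of all pairs: 6 in SRSF10, 6 in HNRNPH3 and 1 each in U2AF1 and HNRNPM. An unadjusted p under 0.05 was found for 33 (32.7%), beside 20.8% of all pairs, and pairs of 1 gene share reads. The differences were small, with an absolute median of 0.024 and none above 0.32 on the log2 scale. The sequences below are those coding stretches that set the transcripts of these genes apart, read from GENCODE 29 transcripts on GRCh38 that match the listed RefSeq transcripts. RefSeq and GENCODE ends can differ, so other exonic bases may add to a difference or take from it.

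U2AF1 has a pair of alternative exons of 67 bases, exon a (chr21:43100453-43100519) and exon b (chr21:43101366-43101432, both minus strand), shown because their balance differed between the groups. Capitals mark the 23 positions at which the pair differ.
U2AF1 exon a: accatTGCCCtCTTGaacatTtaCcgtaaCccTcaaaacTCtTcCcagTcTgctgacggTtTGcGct
U2AF1 exon b: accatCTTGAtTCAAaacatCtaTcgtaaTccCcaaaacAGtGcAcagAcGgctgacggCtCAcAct

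The top transcript, NM_001025204, holds both exons, so its excess over the transcript with exon b alone is the exon a signal, and the reverse. Because transcripts that share exons share signal, its top rank does not show that it is the main form. The exon a signal was 1140, 1318 and 1312 in Control and 874.2, 779.3 and 762.2 after DCC-2036. The exon b signal was 469.2, 481.1 and 542.1 in Control and 479.1, 503.2 and 449.1 after DCC-2036. Exon a signal was thus lower in every treated library, while exon b signal overlapped between the groups. Exon b made up 29.1%, 26.7% and 29.2% of the sum of both in Control and 35.4%, 39.2% and 37.1% after DCC-2036, or 28.4% ± 1.42 and 37.2% ± 1.92 (SD, n = 3 per group). The groups did not overlap (two-sided exact permutation p = 0.1, the smallest that 3 against 3 can give). In the test over all pairs, the log2 fold change of the transcript with exon a alone differed from that of the top transcript by -0.0972 (limma adjusted p = 0.0279) and that of the one with exon b alone by 0.075 (limma adjusted p = 0.166), neither past the threshold of 0.01.

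SRSF10 transcripts end in different last exons, and the coding parts of 3 of them are shown because the values that differ belong to them. Capitals mark the last coding stretch, which follows a shared upstream exon, and lower case the stop codon. They lie on chr1:23971145-23971439 (NM_054016), chr1:23967929-23967956 (NM_001191006) and chr1:23967666-23967723 (NM_001191007), minus strand.
NM_054016: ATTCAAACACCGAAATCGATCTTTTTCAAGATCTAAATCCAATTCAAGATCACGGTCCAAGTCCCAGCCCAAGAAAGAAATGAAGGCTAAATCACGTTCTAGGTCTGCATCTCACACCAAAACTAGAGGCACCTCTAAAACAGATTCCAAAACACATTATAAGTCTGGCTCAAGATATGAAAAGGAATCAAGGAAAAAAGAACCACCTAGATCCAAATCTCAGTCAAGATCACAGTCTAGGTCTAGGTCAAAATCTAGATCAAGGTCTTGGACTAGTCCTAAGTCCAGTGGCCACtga
NM_001191006: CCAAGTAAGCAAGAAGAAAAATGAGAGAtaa
NM_001191007: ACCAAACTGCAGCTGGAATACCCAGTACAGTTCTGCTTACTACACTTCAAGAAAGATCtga

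The stretch of NM_054016 is 295 bases long and encodes much of the arginine- and serine-rich domain, and the coding sequence of this transcript has 786 bases. The coding sequences of NM_001191006 and NM_001191007, of 519 and 546 bases, end in other stretches of 28 and 58 bases. The value of NM_054016 was 2968, 2985 and 2801 in Control and 1869, 1863 and 2133 after DCC-2036. NM_001191006 stood at 1828, 1749 and 1750 in Control and at 1429, 1394 and 1530 in treated cells. Both were lower in all treated libraries, but NM_001191006 was at 61.6%, 58.6% and 62.5% of NM_054016 in Control and at 76.5%, 74.9% and 71.8% after DCC-2036, without overlap. The difference in log2 fold change was 0.29 for NM_001191006 (SE 0.036, limma adjusted p = 0.0272) and 0.28 for NM_001191007 (SE 0.033, 0.0261). NM_006625 differed by 0.30 (0.0194), and NM_001300937, NM_001300936 and NM_001191009 by 0.24 to 0.27 (0.0204 to 0.0361). NM_001191005 alone kept its ratio to NM_054016, at 87.7% to 88.9% in Control and 87.4% to 88.0% after DCC-2036 (limma adjusted p = 0.611).

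**Figure D4:**
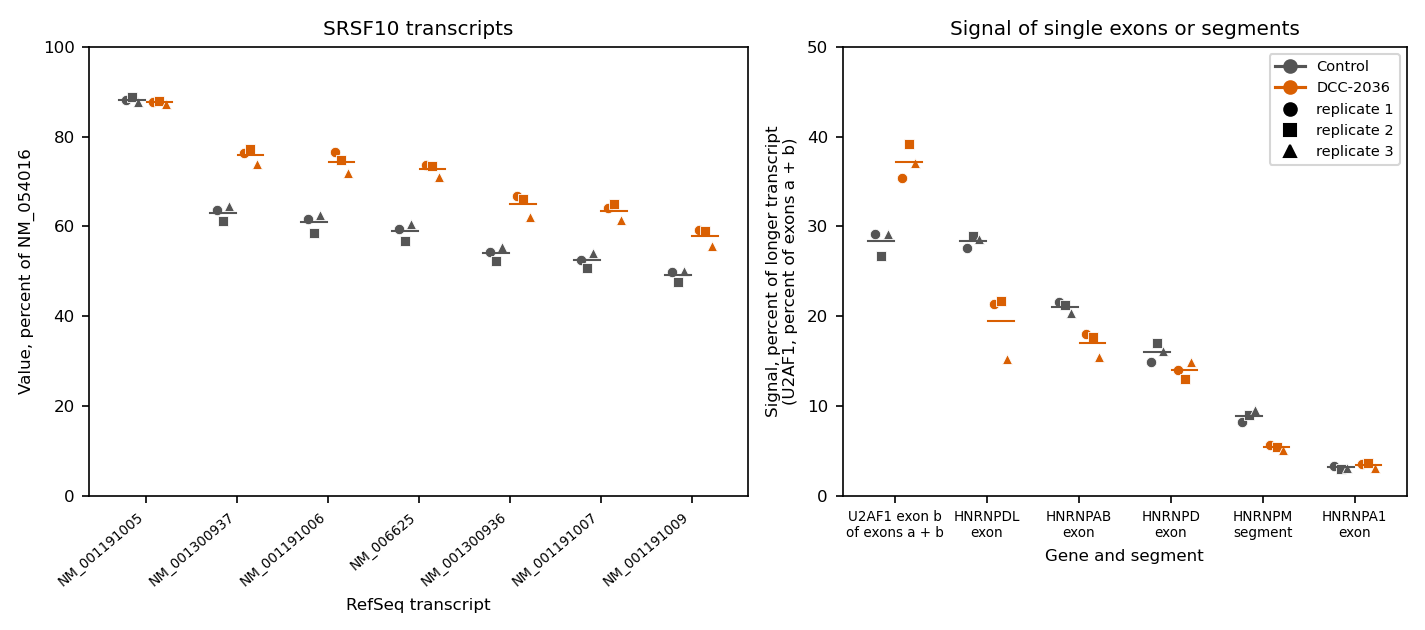
Left, values of 7 SRSF10 transcripts as a percentage of NM_054016 in the same library (vertical axis); right, signal of single exons or segments as a percentage of the longer transcript (U2AF1 exon b as a percentage of exons a and b together). Grey symbols are Control and orange DCC-2036 libraries, shapes mark the replicate number and lines the group means; 6 SRSF10 transcripts and U2AF1 exon b have a higher share after DCC-2036, HNRNPDL, HNRNPAB and HNRNPM a lower one, and HNRNPD and HNRNPA1 overlap between the groups.

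HNRNPM, a splicing regulator bound to intron and exon GU-rich motifs, differs between NM_005968 and NM_031203 by 117 coding bases in exon 6 (chr19:8465363-8465479, plus strand). The transcript matched to NM_031203 also holds 191 exonic bases that NM_005968 lacks, so their difference may not be the signal of those 117 bases alone. The segment is shown in capitals between 10 bases on either side, since its share of the signal was lower in treated cells.
HNRNPM segment: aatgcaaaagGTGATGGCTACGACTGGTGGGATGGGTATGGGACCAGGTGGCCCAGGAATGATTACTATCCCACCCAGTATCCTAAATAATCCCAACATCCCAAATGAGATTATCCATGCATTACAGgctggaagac

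The difference between these transcripts was 1031, 1071 and 1145 in Control and 721.7, 734.8 and 698.9 after DCC-2036, while the longer transcript itself was at 110% of Control and not called. As a share of the longer transcript the segment had 8.92% ± 0.678 in Control and 5.36% ± 0.317 after DCC-2036 (SD, n = 3 per group, exact permutation p = 0.1). The groups did not overlap, and the pair had a limma adjusted p of 0.0408.

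In HNRNPDL and HNRNPAB the exon of 171 and 141 bases that encodes a tyrosine- and glycine-rich stretch of the C-terminal tail carried a smaller share of the signal after DCC-2036. Both exons are shown in capitals, with 10 bases on either side, so that their like composition can be seen. They lie on chr4:82426463-82426633 (minus strand, exon 6) and on chr5:178210132-178210272 (plus strand, exon 7).
HNRNPDL exon: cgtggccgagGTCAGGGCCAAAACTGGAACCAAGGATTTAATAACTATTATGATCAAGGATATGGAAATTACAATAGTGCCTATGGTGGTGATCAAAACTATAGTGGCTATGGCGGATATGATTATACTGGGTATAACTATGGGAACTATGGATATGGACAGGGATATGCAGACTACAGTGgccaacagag
HNRNPAB exon: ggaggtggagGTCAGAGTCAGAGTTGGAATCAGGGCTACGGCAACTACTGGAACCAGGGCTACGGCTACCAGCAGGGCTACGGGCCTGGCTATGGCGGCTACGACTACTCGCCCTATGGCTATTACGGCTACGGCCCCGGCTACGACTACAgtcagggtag

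The HNRNPDL exon made up 27.6%, 28.9% and 28.6% of the longer transcript in Control and 21.4%, 21.7% and 15.2% after DCC-2036 (28.4% ± 0.697 and 19.4% ± 3.64, SD, n = 3 per group, exact permutation p = 0.1). The HNRNPAB exon made up 21.6%, 21.2% and 20.4% in Control and 18.0%, 17.7% and 15.4% in treated cells (21.1% ± 0.596 and 17.0% ± 1.43, SD, n = 3 per group, exact permutation p = 0.1). Neither pair passed over all pairs, with limma adjusted p of 0.0733 and 0.0778. For HNRNPD, whose total fell most among the hnRNPs, the share of exon 2 (57 bases, chr4:82371528-82371584) was 16.0% ± 1.07 in Control and 13.9% ± 0.959 after DCC-2036, with the highest treated library just above the lowest Control library (SD, n = 3 per group, exact permutation p = 0.2). Another HNRNPD transcript, NM_002138, was at 86.7%, 87.4% and 87.2% of the top transcript in Control and at 85.1%, 84.3% and 86.3% after DCC-2036. These groups did not overlap (limma adjusted p = 0.199), so the signal absent from NM_002138 had a higher share in treated cells, the other direction from exon 2. The exon of 156 bases that separates HNRNPA1 transcripts had 3.15% ± 0.18 in Control and 3.39% ± 0.271 after DCC-2036, with overlapping groups (SD, n = 3 per group, exact permutation p = 0.3). The exon that separates HNRNPA2B1 transcripts had 2.97%, 2.89% and 2.89% in Control and 2.55%, 2.34% and 2.64% after DCC-2036, lower in every treated library (exact permutation p = 0.1, n = 3 per group). In the test over all pairs the HNRNPA2B1 difference was 0.006 (limma adjusted p = 0.644). Several of the matched transcripts differ by more than the named exon. The form with the exon holds 194 exonic bases that the other lacks in HNRNPAB, 1393 in HNRNPD and 1953 in HNRNPA2B1. In HNRNPA1 the form without the exon holds 2435 exonic bases that the other lacks. For these 4 genes the difference may not be the signal of the named exon alone.

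HNRNPH3, a member of the H/F type that binds G-rich runs, has 21 listed transcripts, of which the top one was not called (log2 fold change -0.13). Relative to it, NM_001322448 was at 68.5%, 68.2% and 68.5% in Control and at 73.4%, 74.2% and 74.4% after DCC-2036, the pair with the lowest adjusted p of all members (difference 0.11, SE 0.008, limma adjusted p = 0.0106). The ratios hardly varied within a group, and the 5 further pairs at an adjusted p under 0.05 differed in the same direction. HNRNPH3 exons overlap RUFY2 on the other strand. SNRPE, an Sm protein gene, had the widest range of signs. NM_001328638 was at 38.6%, 40.6% and 41.5% of the top transcript in Control and at 46.4%, 46.8% and 51.1% after treatment (difference 0.26, SE 0.049, limma adjusted p = 0.0629).

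Genes that act with these factors were taken from further lists. Of 77 other splicing genes (snRNP, tri-snRNP, catalytic and regulatory factors outside the 7 prefixes) 24 rose and 11 fell, with a median log2 fold change of 0.26, beside 19.2% and 22.7% of all symbols. With libraries scaled to equal totals 13 rose and 14 fell, beside 1669 and 3440 of 12737 symbols. Without Control replicate 1, 2 or 3 or DCC-2036 replicate 2, 6 or 7 rose and 6 to 8 fell, beside 928 to 1054 and 1514 to 1708 of all symbols. Examples that rose are BUD31, a protein of the activated spliceosome (1.20), CDC40, a second-step factor (1.24), RNPC3 of the minor spliceosome (1.33) and CELF1, a GU-rich element binder (1.30). Examples that fell are ESRP2, an epithelial splicing regulator (-1.58), and DHX16, a helicase of spliceosome activation (-1.22). ESRP1, the relative of ESRP2 on the same list, had higher values, overlapping groups and no call (-0.06, limma adjusted p = 0.698). PHF5A, which sits in SF3b beside SF3B1, had 1057, 1187 and 1188 in Control and 462.4, 365.9 and 346.4 after DCC-2036 (log2 fold change -1.55, SE 0.14, limma adjusted p = 0.000441).

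SR proteins are switched by phosphorylation. Of 8 genes for their kinases and a phosphatase 5 rose and 1 fell, beside 19.2% and 22.7% of all symbols. The number that rose was 4 at equal totals, without a filter, with a replicate block, with summed transcripts, without any 1 of the Control libraries and without DCC-2036 replicate 2. Over all symbols 928 to 2341 rose in these fits. CLK1 had 201.2, 214.3 and 199.7 in Control and 626.5, 861.4 and 980.8 after DCC-2036 (log2 fold change 1.98, SE 0.18, limma adjusted p = 0.000426). CLK4 (1.98), CLK3 (1.32), DYRK1A (0.99) and SRPK2 (0.84) also rose without overlap. CLK2 was the member that fell, with 556.6, 558.4 and 550.4 in Control and 289.2, 227.5 and 245.2 after treatment (-1.13, SE 0.12). SRPK1 (0.20) and the phosphatase subunit PPP1CA (0.08) were not called.

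Sm proteins are methylated and loaded onto snRNA by the PRMT5 and SMN complexes. Of 17 genes of this assembly list 4 rose and 6 fell, beside 19.2% and 22.7% of all symbols. None rose without any 1 of the Control libraries or without DCC-2036 replicate 2, beside 928 to 1054 of all symbols in these fits. GEMIN4 had 3138, 3149 and 3242 in Control and 1036, 820.4 and 648.2 after DCC-2036 (log2 fold change -1.95, SE 0.18, limma adjusted p = 0.000443), and GEMIN7 (-1.88), GEMIN8 (-1.73) and GEMIN6 (-0.95) fell as well. The methyltransferase PRMT5 (-1.02) and its cofactor WDR77 (-1.31) fell too. SMN1 rose by 0.89, but it is nearly identical to SMN2 and the assignment of reads between them is uncertain. STRAP (0.91), PHAX (0.97) and TGS1 (0.71) were also higher. Of 10 genes of nonsense-mediated decay, which removes many unproductive splice forms, 1 rose and 3 fell (SMG9, -1.79, UPF3B, -1.11 and SMG8, -0.72), beside the same 19.2% and 22.7%. Without Control replicate 2 or 3 the counts were 0 and 1, without DCC-2036 replicate 2 they were 1 and 1, and without DCC-2036 replicate 3 they were 3 and 3. Over all symbols these fits gave 928 to 2487 higher and 1514 to 3253 lower.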

How the data were processed

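RNA from 6 LoVo libraries was compared, 3 Control and 3 DCC-2036, grouped by the titles in the labels. The deposited values are a non-whole signal per RefSeq transcript. Alignment, counting, normalization and genome build are not given in the sources used here, and per the labels libraries were made with a Nextera XT kit. The authors' columns of log2 fold changes, p-values and q-values were not used, and the table has 0 other value columns. Because it holds no counts, limma 3.58.1 (R 4.3.3) was fitted to log2(value + 1) without covariates, on 1 transcript per symbol with at least 10 in at least 3 libraries, two-sided, and the code was tested on simulated data. Transcript pairs were fitted over all 19352 pairs. Segment shares were compared with exact permutation tests (scipy 1.17.1, Python 3.11.15, numpy 2.4.6, pandas 2.3.3, matplotlib 3.10.9). Of 177 transcripts, 164 matched a GENCODE 29 transcript, 104 of them one matched by no other.

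Named genes are the 8 highest and 8 lowest called members and the member with the highest mean of each prefix, while other members appear with fewer values or only in the counts. The members and lists were chosen with earlier results of these data known, and the genes named from the further lists, PRPF3, SRSF11, SF3B1, HNRNPA2B1 and U2AF1 among the members, and the transcripts and segments shown, were picked after their values were seen. Alternatives were other scalings, filters, a pseudocount of 0.1, a limma trend, a replicate block, summed transcripts, single libraries left out and an adjusted p under 0.05. The unadjusted pair count, the segment shares and the alternatives for the further lists were added after seeing the data.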

Additional observations from a re-analysis of the deposited data

How the results depend on the processing

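None of the 24 called members changed sign in the 14 alternative fits, and 8 were called in all of them. Scaling to equal totals moved the median log2 fold change of all symbols to -0.289 and of the members to -0.272 (8 rose, 21 fell), and the median of ratios moved them to -0.009 and 0.008, so directions near 0 depend on the scaling. With a limma trend 14 members rose and 19 fell, beside 2865 and 3283 of 12725 symbols. With the replicate block 4 members were higher and 5 lower, beside 1202 and 1909 of all symbols. At an adjusted p under 0.05 there were 15 higher and 25 lower members. No count over all symbols is given for that limit, so it cannot be said whether these shares differ from the background. The replicate numbers do not pair the samples (correlations 0.081, -0.035 and -0.003). With 1 library left out, 3 to 11 members rose and 6 to 18 fell, at medians of -0.102 to -0.042. Over all symbols 928 to 2675 rose and 1514 to 3507 fell in these fits. Without any 1 Control library or DCC-2036 replicate 2 the counts were 3 higher and 6 lower, with SRSF1 as the only SR protein. SNRPB changed sign, to 0.056 (median of ratios) and lay between -0.11 and 0.033 with 1 library left out, above 0 without Control replicate 2 (0.0027), Control replicate 3 or DCC-2036 replicate 1 (0.02). Transcript pairs of members apart numbered 1 with at least 10 in every library and 4 with a trend. No share over all pairs is given for these fits, so those counts have no background. In the main fit 14 were apart at an adjusted p under 0.05 and 33 at an unadjusted one, beside 4.14% and 20.8% of all pairs. For the 77 other splicing genes, 13 rose and 14 fell at equal totals, 12 and 9 did so without a filter and 8 and 8 with the block. With 1 library left out, 6 to 28 of them rose and 6 to 16 fell. Over all symbols 1669 rose and 3440 fell at equal totals, and 1749 and 2154 of 16667 did so without a filter. The cause of these moves was not tested. Tests on counts were not run, since depth is unknown.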
